A study of Mus musculus with 6 samples.

Results

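The genes described here were 9 of the 32285 features in the count tables: *Acp5*, *Atp6v0d2*, *Ctsk*, *Dcstamp*, *Ocstamp*, *Nfatc1*, *Mmp9*, *Tnfrsf11a* and *Tnfsf11*, which serve osteoclast formation, cell fusion and bone resorption. They were chosen by name, with their molecule counts (unique molecular identifiers, UMIs) in the macrophage nuclei of these same libraries in view. Their levels in macrophages are therefore a description and carry no test. The first 5 are called core genes below, and the other 3 macrophage genes and the ligand *Tnfsf11* are given one by one.

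Nuclei came from dissected cortical lesions of mice after photothrombotic injury, in which light and a dye close cortical vessels, sorted by DAPI stain and captured in droplets. In the study's dissection lesions were separated from the skullcap. Whether the osteoclast-like and osteoblast-like nuclei described below came from lesion or skull was not tested. Wild-type mice without a listed treatment (Ctrl), wild-type mice given ADWA11, an antibody that blocks integrin αvβ8, once a week from 0 dpi until collection, and *Col1a2*(creER); *Tgfbr2*(flox) mice (Tgfbr2-cKO) were each sampled at 7 and 21 days post injury (dpi). In Tgfbr2-cKO mice a tamoxifen-activated Cre under *Col1a2* control removes a TGFβ receptor from fibroblasts, so the macrophages themselves were not targeted. *Tgfbr2* was at 241 and 191 CPM in fibroblast-like nuclei of Tgfbr2-cKO at 7 and 21 dpi and at 322 and 232 CPM in those of Ctrl (CPM, the UMIs of a gene scaled to a common total of non-mitochondrial UMIs), but 3′ counts need not cover the floxed exon and do not check its loss. Each group was 1 library that pooled 1 male and 1 female mouse, whose ages the labels do not give. No group had a second library, no p-value is given, and every interval below covers counting error only.

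Osteoclasts are multinucleated cells of the macrophage lineage that dissolve bone. RANKL, the product of *Tnfsf11*, is made by bone-forming, stromal and T cells and binds the receptor RANK (*Tnfrsf11a*) on macrophage precursors, which turns on the transcription factor NFATc1. NFATc1 then drives fusion proteins (DC-STAMP and OC-STAMP), a subunit of the proton pump that acidifies the resorption space (*Atp6v0d2*) and secreted enzymes (cathepsin K from *Ctsk*, the acid phosphatase TRAP from *Acp5*, the gelatinase *Mmp9*). Osteoprotegerin (*Tnfrsf11b*) is the soluble decoy for RANKL. Several of these genes, *Atp6v0d2* among them, are also used by macrophages outside bone. An isolated nucleus does not show whether its cell held others.

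The promoters are shown because the core genes are treated here as one programme, and because the ligand is read in other cells. On GRCm38 *Acp5* lies at chr9:22126727-22135711 (minus strand), *Atp6v0d2* at chr4:19876841-19922605 (minus), *Ctsk* at chr3:95499256-95509362 (plus), *Dcstamp* at chr15:39745930-39760938 (plus), *Ocstamp* at chr2:165393760-165400405 (minus), *Mmp9* at chr2:164940780-164955850 (plus), *Tnfrsf11a* at chr1:105780718-105847981 (plus) and *Tnfsf11* at chr14:78277445-78308043 (minus). *Acp5* overlaps an antisense gene, 6530413G14Rik, on the other strand. RefSeq promoter windows for GRCm38.p6 were matched for 4 of the members. The 250 bases before the start are printed 5′ to 3′ on the gene's strand for *Ctsk* (chr3:95498960-95499209), for the outermost *Acp5* start (chr9:22135747-22135996) and for *Tnfsf11* (chr14:78308044-78308293). Capitals mark the NFAT core GGAAA, the AP-1 site TGANTCA and the MITF/TFE E-box CACNTG on either strand.
Ctsk: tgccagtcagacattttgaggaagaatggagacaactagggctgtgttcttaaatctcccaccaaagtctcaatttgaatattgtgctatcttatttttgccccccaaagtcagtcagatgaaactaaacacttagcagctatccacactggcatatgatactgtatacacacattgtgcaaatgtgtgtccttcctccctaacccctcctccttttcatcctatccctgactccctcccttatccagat
Acp5: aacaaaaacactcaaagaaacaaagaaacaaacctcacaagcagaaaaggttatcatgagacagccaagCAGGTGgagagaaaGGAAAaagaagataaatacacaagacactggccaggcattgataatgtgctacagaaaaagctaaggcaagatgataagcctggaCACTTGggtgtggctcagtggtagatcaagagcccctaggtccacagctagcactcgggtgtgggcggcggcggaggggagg
Tnfsf11: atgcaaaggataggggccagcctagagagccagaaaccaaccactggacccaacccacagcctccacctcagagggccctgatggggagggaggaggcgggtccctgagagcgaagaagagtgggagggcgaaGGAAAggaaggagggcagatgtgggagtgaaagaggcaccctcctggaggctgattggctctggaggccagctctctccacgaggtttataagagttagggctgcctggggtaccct
The *Ctsk* window held none of the 3 motifs, the *Acp5* window held 1 NFAT core and 2 E-boxes, and the *Tnfsf11* window held 1 NFAT core. Of 32851 windows of this length, 55.6% held GGAAA, 6.75% TGANTCA and 39.5% CACNTG, so these matches are ordinary, and a match or its absence says nothing about binding.

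The 6 libraries held between 7205 and 14246 barcodes and between 64798965 and 140310354 UMIs, and 61917 of 67360 barcodes passed the filter. Clustering and marker genes gave 23088 myeloid-like nuclei. Ctrl gave 4113, ADWA11 5825 and Tgfbr2-cKO 2250 of them early, and 3037, 5690 and 2173 late. Any pair of libraries shared between 21 and 61 barcodes. Myeloid-like nuclei carried RNA of other cells in amounts that differed between libraries. The summed level of 6 neuron markers in Tgfbr2-cKO was 257 CPM early and 80.5 CPM late, against 3.77 to 12.8 CPM in the other 4 libraries, and the sum of 6 fibroblast markers was 39.9 and 50.8 CPM in Tgfbr2-cKO against 317 to 924 CPM elsewhere. The part of this foreign RNA in the differences below was not tested, except where nuclei with a collagen UMI were left out.

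The proton-pump gene carried most of the signal. In myeloid-like nuclei at 7 dpi *Atp6v0d2* was at 445 CPM in Ctrl, 1136 CPM with ADWA11 and 198 CPM in Tgfbr2-cKO. The values at 21 dpi, in the same order, were 1073, 2436 and 619 CPM. ADWA11 was highest and Tgfbr2-cKO lowest at each time, with no overlap of the counting intervals. It was detected in 14.0% of nuclei (Tgfbr2-cKO, 7 dpi) to 82.8% (ADWA11, 21 dpi), and it made up 96.1% of all core gene UMIs, so the core sum is close to *Atp6v0d2* alone. Neural nuclei, which should lack the gene, showed a UMI in 4.99% at a median of 9722.5 UMIs per nucleus, against 53.0% of myeloid-like nuclei at a median of 5203 UMIs. With each nucleus thinned to 2000 UMIs these shares were 2.29% and 47.7%. The neural share was not even, at 6.62%, 13.4% and 1.40% early and 11.2%, 23.0% and 3.51% late in Ctrl, ADWA11 and Tgfbr2-cKO, and 7562 of the 14080 neural nuclei came from Tgfbr2-cKO at 7 dpi. It was below the myeloid-like share in all 6 libraries but followed the same order, ADWA11 above Ctrl above Tgfbr2-cKO, also when thinned (0.489% to 12.6%). Its part in the difference between libraries was not tested.

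The resorption enzymes were sparser. *Ctsk* at 7 dpi was at 15.2 CPM in Ctrl, 12.3 CPM with ADWA11 and 6.42 CPM in Tgfbr2-cKO, and later at 26.5, 79.7 and 15.0 CPM. *Acp5*, in that order, was at 14.7, 16.3 and 6.88 CPM early and 8.86, 23.9 and 10.5 CPM late. For both enzymes ADWA11 at 21 dpi stood above the other 5 libraries. Tgfbr2-cKO at 7 dpi was below the others for *Ctsk*, and for *Acp5* its interval (5.25 to 8.85 CPM) overlapped that of Ctrl at 21 dpi. *Acp5* had a UMI in 6.83% of myeloid-like and 1.24% of neural nuclei (2.67% and 0.312% thinned). *Ctsk* had one in 6.83% and 4.84% (3.30% and 1.02% thinned), but within libraries its unthinned share was below that of neural nuclei in 5 of 6. The exception was ADWA11 at 21 dpi, with 14.9% of myeloid-like and 7.60% of neural nuclei (7.86% and 2.61% thinned). In the other 5, except Tgfbr2-cKO at 7 dpi, the order turned on depth. Thinned *Ctsk* shares of myeloid-like and neural nuclei at 7 dpi were 1.69% and 1.58% in Ctrl and 1.56% and 0.801% with ADWA11. At 21 dpi they were 3.03% and 2.14% in Ctrl and 1.49% and 0.918% in Tgfbr2-cKO. Only in Tgfbr2-cKO at 7 dpi did the thinned myeloid-like share stay below the neural one (0.688% and 0.724%). *Mmp9* stayed between 0.917 and 2.81 CPM. It had a UMI in 0.637% of myeloid-like and 0.760% of neural nuclei, but in 0.278% and 0.163% when thinned (0.203% of myeloid-like nuclei without the 29 osteoclast-like ones described later), so the order of the shares turned with depth.

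The fusion genes were rare. In Ctrl, ADWA11 and Tgfbr2-cKO *Dcstamp* gave 44, 40 and 2 UMIs early (1.77, 0.908 and 0.229 CPM) and 27, 190 and 6 UMIs late (1.93, 5.86 and 0.479 CPM). ADWA11 at 21 dpi was the high library and both Tgfbr2-cKO libraries were low. *Ocstamp* gave 24 UMIs in all, between 1 and 9 per library, and could not be ranked.

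The receptor and its transcription factor were detected in more myeloid-like than neural nuclei, and no library differed from its Ctrl by 2-fold in either. *Tnfrsf11a* was at 464, 372 and 436 CPM early and 387, 267 and 363 CPM late in the same order, with a UMI in 62.8% to 73.3% of nuclei per library, against 8.21% to 16% of neural nuclei (45.1% and 3.45% thinned, over all libraries). *Nfatc1* was at 149, 90.4 and 110 CPM and then 106, 85.9 and 115 CPM, with a UMI in 39.5% of all myeloid-like and 9.06% of neural nuclei (18.4% and 2.59% thinned). *Nfatc1* overlaps a gene on the other strand, AC123818.1. In both genes ADWA11 was the lowest library of its time point, the reverse of *Atp6v0d2*. *Tnfsf11* was close to absent from macrophages, with 23 UMIs in 23 nuclei.

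**Figure D1:**
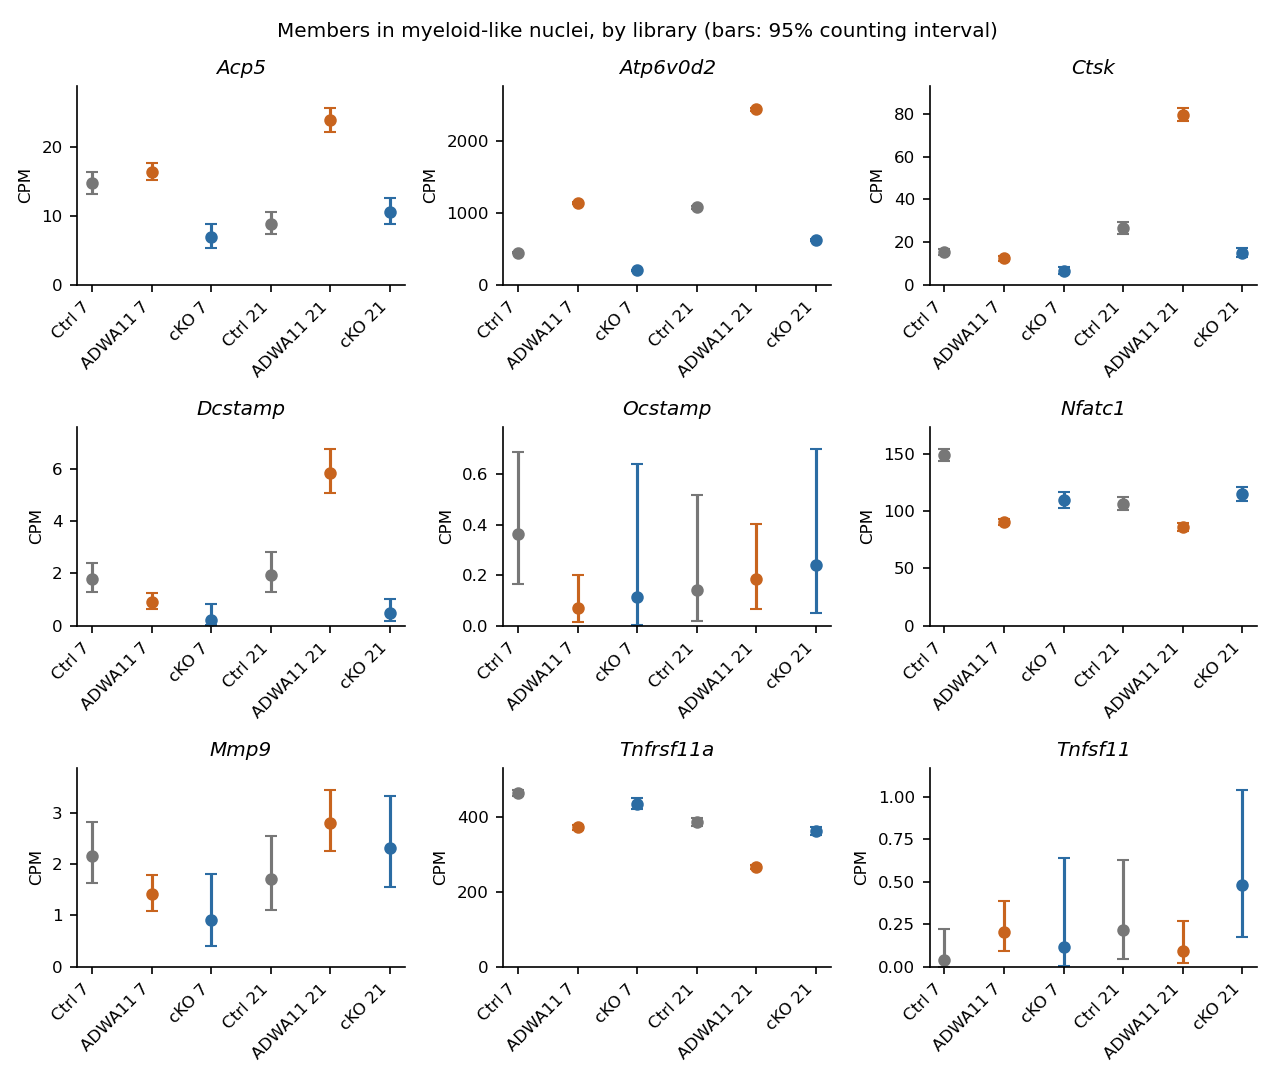
Level of each gene in myeloid-like nuclei (CPM, y axis) in each of the 6 libraries (x axis; the number is the day post injury), with Ctrl in grey, ADWA11 in orange, Tgfbr2-cKO (cKO) in blue and bars for the 95% counting interval. *Acp5*, *Atp6v0d2*, *Ctsk* and *Dcstamp* were highest in ADWA11 at 21 dpi (2436 CPM for *Atp6v0d2*), while *Nfatc1* and *Tnfrsf11a* were not.

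Loss of the TGFβ receptor in fibroblasts was set against Ctrl to ask how macrophages change when fibroblasts no longer respond to TGFβ. At 7 dpi 6 of the 8 members with at least 10 UMIs in both libraries together were lower by 2-fold or more and 0 were higher, where 6.06% of 17129 genes were lower and 14.3% higher by that measure. These were *Acp5* (log2 ratio -1.09, 95% counting interval -1.51 to -0.70), *Atp6v0d2* (-1.17) and *Ctsk* (-1.24, -1.68 to -0.84). The others were *Dcstamp* (-2.95, -6.04 to -1.01), *Mmp9* (-1.24, -2.53 to -0.16) and *Ocstamp*. *Ocstamp* was counted on 1 against 9 UMIs, and its interval (-7.11 to 1.19) included 0. It reached 10 UMIs through the 9 of Ctrl, so its place in the count is no support. *Tnfrsf11a* (-0.09) and *Nfatc1* (-0.44) stayed within 2-fold. The core sum was 212 CPM against 477 CPM, a log2 ratio of -1.17 (-1.24 to -1.10). Nuclei called female, which stand for 1 mouse, gave 195 CPM in Tgfbr2-cKO and 454 CPM in Ctrl, and male nuclei gave 256 and 495 CPM. The log2 ratio of the core sum was -0.74 without the 2 sub-clusters with raised microglia markers described below and -0.95 in male nuclei, both within 2-fold.

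Several of these values rested on 11 of the 4113 Ctrl nuclei, which formed the osteoclast-like sub-cluster described below and held 169 of 378 *Ctsk*, 96 of 365 *Acp5*, 27 of 44 *Dcstamp* and 31 of 54 *Mmp9* UMIs of Ctrl at 7 dpi. Without that sub-cluster, a choice made after the data were seen, 3 of 7 members were lower by 2-fold or more and 0 higher, where 5.93% of 17105 genes were lower and 14.3% higher. *Atp6v0d2* was one of them (-1.13, -1.21 to -1.06), and the intervals of the others, *Dcstamp* (-1.58, -4.74 to 0.49) and *Mmp9* (-1.43, -3.81 to 0.29), included 0. *Ctsk* (4.47 against 8.44 CPM, -0.92) and *Acp5* (6.19 against 10.9 CPM, -0.81) were then within 2-fold, and *Ocstamp* was under 10 UMIs.

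At 21 dpi the core sum differed less. Only *Dcstamp* among the 7 members with 10 UMIs was past 2-fold, at -2.01 (-3.58 to -0.70) on 6 against 27 UMIs, with 7.40% of genes lower and 7.86% higher as background. *Atp6v0d2* (-0.79, -0.83 to -0.75) and *Ctsk* (-0.82, -1.08 to -0.56) were lower by less than 2-fold, while *Acp5* (0.25, -0.11 to 0.62) and *Mmp9* (0.43, -0.40 to 1.28) had intervals that included 0. The core sum was 645 against 1110 CPM, with 561 and 723 CPM in female and male Tgfbr2-cKO nuclei and 1101 and 1202 CPM in those of Ctrl. Without the osteoclast-like nuclei (4 in Tgfbr2-cKO and 2 in Ctrl) *Ctsk* was also past 2-fold, at 8.09 against 22.5 CPM (-1.47, -1.81 to -1.15), so that 2 of 7 members were lower and 0 higher, where 7.44% and 7.79% of genes were.

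Blockade of αvβ8 was set against Ctrl to ask what limiting TGFβ activation does. At 7 dpi only the proton-pump gene was 2-fold or more higher with an interval above 0. *Atp6v0d2* was higher by 1.35 (1.32 to 1.38) on the log2 scale, with 1027 and 1321 CPM in female and male ADWA11 nuclei against 414 and 471 CPM in Ctrl. Of 9 members, 2 were higher (*Atp6v0d2* and *Tnfsf11*, the latter on 9 against 1 UMI) and 1 lower by 2-fold or more, against a background of 8.69% and 6.89% of genes. The lower one was *Ocstamp* (-2.41, -4.93 to -0.41), on 3 against the same 9 Ctrl UMIs as above. *Ocstamp* and *Tnfsf11* passed the 10 UMI filter mostly through the library where they were high, so neither is support. *Acp5* (0.15, -0.03 to 0.34) had an interval that included 0, while *Ctsk* (-0.31), *Dcstamp* (-0.96) and *Nfatc1* (-0.72) were lower. The direction for *Ctsk* turned on the osteoclast-like nuclei, since 169 of 378 UMIs in Ctrl lay in 11 of them and 118 of 542 in ADWA11 lay in 3. Without them *Ctsk* was at 9.63 against 8.44 CPM (0.19, -0.05 to 0.44), *Acp5* was higher by 0.48 (0.28 to 0.69), and *Dcstamp* (-1.11, on 14 against 17 UMIs) and *Mmp9* (-1.11, on 19 against 23 UMIs) were the 2 members lower by 2-fold or more, with the same 2 higher, where 6.83% of genes were lower and 8.74% higher. The core sum ratio was 1.29, with 0.99 left without the microglia-like sub-cluster and 0.90 without both sub-clusters with raised microglia markers, each under 2-fold. Without *Atp6v0d2* it was -0.11 (-0.24 to 0.02) with the osteoclast-like nuclei and 0.32 (0.16 to 0.47) without them.

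At 21 dpi the pump, both resorption enzymes and a fusion gene were higher together under ADWA11. Of the 7 members with 10 UMIs, 4 were higher and 0 lower by 2-fold or more, where 5.95% of genes were higher and 12.6% lower. *Atp6v0d2* was higher by 1.18 (1.16 to 1.21), *Acp5* by 1.43 (1.15 to 1.71), *Ctsk* by 1.59 (1.43 to 1.75) and *Dcstamp* by 1.60 (1.02 to 2.24). *Ctsk* was at 73.6 and 82.5 CPM in female and male ADWA11 nuclei and at 26.0 and 31.0 CPM in those of Ctrl, and *Acp5* at 27.5 and 22.0 CPM against 9.10 and 9.91 CPM. Both ADWA11 mice were thus above both Ctrl mice for each enzyme. *Tnfrsf11a* (-0.54, -0.59 to -0.49) and *Nfatc1* (-0.31, -0.40 to -0.22) were lower by less than 2-fold. The core sum without *Atp6v0d2* was 110 against 37.4 CPM. Without the osteoclast-like nuclei the same 4 members were higher by 2-fold or more and 0 lower, where 5.93% of genes were higher and 12.7% lower.

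In Ctrl lesions the pump gene was higher at 21 than at 7 dpi, by 1.27 (1.23 to 1.31), and *Ctsk* by 0.80 (0.59 to 1.01), while *Acp5* was lower by 0.73 on the log2 scale (8.86 against 14.7 CPM). The core sum differed by 1.22 (1.18 to 1.25), by 0.23 without *Atp6v0d2* and, under 2-fold, by 0.93 without the microglia-like sub-cluster described below. Of 8 sub-clusters *Atp6v0d2* was higher at 21 dpi in 5, past 2-fold in sub-cluster 0 alone (1.19, 1.11 to 1.28), and below its 7 dpi level in 3, past 2-fold in sub-cluster 6 (-2.32, -4.60 to -0.77, on 3 against 826 UMIs). Among 8 members 1 was higher and 1 lower by 2-fold or more, with 12.3% and 4.93% of genes as background. The lower one was *Ocstamp*, on 2 against the same 9 UMIs of Ctrl at 7 dpi, with an interval (-4.59 to 0.93) that included 0. Without the osteoclast-like nuclei, 11 early and 2 late, *Ctsk* (22.5 against 8.44 CPM, 1.41, 1.15 to 1.67) and *Dcstamp* (1.32, 0.37 to 2.31) were past 2-fold too, so that 3 of 7 members were higher and 0 lower, where 12.4% and 4.90% of genes were.

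The myeloid-like nuclei were then split into 10 sub-clusters, with all 9 genes and the 47 pathway genes described below left out of the genes used for the split. They had not been left out of the first clustering of all nuclei, in which *Atp6v0d2* was a leading gene of a myeloid cluster, and levels between sub-clusters are a description only. Sub-clusters 0 and 6 raised all 6 microglia markers. Only 6 was called microglia-like, since the 10 leading genes of sub-cluster 0 held 2 neuron markers, *Syt1* and *Snap25*, and 1 microglia marker, *Siglech*, and it stayed unnamed. Sub-cluster 4 carried border-type macrophage markers, 5 division genes and 9 osteoclast markers, and the other 5 stayed unnamed. *Atp6v0d2* ran from 129 CPM in sub-cluster 6 and 551 CPM in sub-cluster 0 to 2353 CPM in 1, 2522 CPM in 7, 3452 CPM in 8 and 3716 CPM in 9. Sub-cluster 8 (571 nuclei, led by *Mamdc2* and *Mmp12*) came next to sub-cluster 9 for *Ctsk* (183 CPM) and *Dcstamp* (26.5 CPM) over all libraries, mostly through ADWA11 at 21 dpi, which gave 108 of its 113 *Dcstamp* UMIs. Ctrl gave 0 at either time in sub-cluster 8, and its *Dcstamp* level was 3.97 CPM in sub-cluster 2 at 21 dpi and 3.05 CPM in sub-cluster 5 at 7 dpi. *Ctsk* in sub-cluster 8 was at 52.9 and 104 CPM in Ctrl and 240 CPM in ADWA11 at 21 dpi, but at 15.4 CPM in ADWA11 at 7 dpi, below sub-cluster 2 (27.2 CPM). Over all libraries its *Acp5* level (31.0 CPM, 25.9 to 36.8) overlapped that of sub-cluster 1 (27.0 CPM, 25.1 to 28.9). Its share of the myeloid-like nuclei at 7 dpi was 0.559% (Ctrl), 0.790% (ADWA11) and 0.0889% (Tgfbr2-cKO), and later 3.59%, 6.75% and 0.322%. *Tnfrsf11a* lay between 261 and 454 CPM in all sub-clusters but 9 and ran the other way from *Atp6v0d2*. It was lowest in sub-clusters 1, 7 and 8 (261, 268 and 279 CPM) and highest in sub-cluster 6 (454 CPM).

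**Figure D2:**
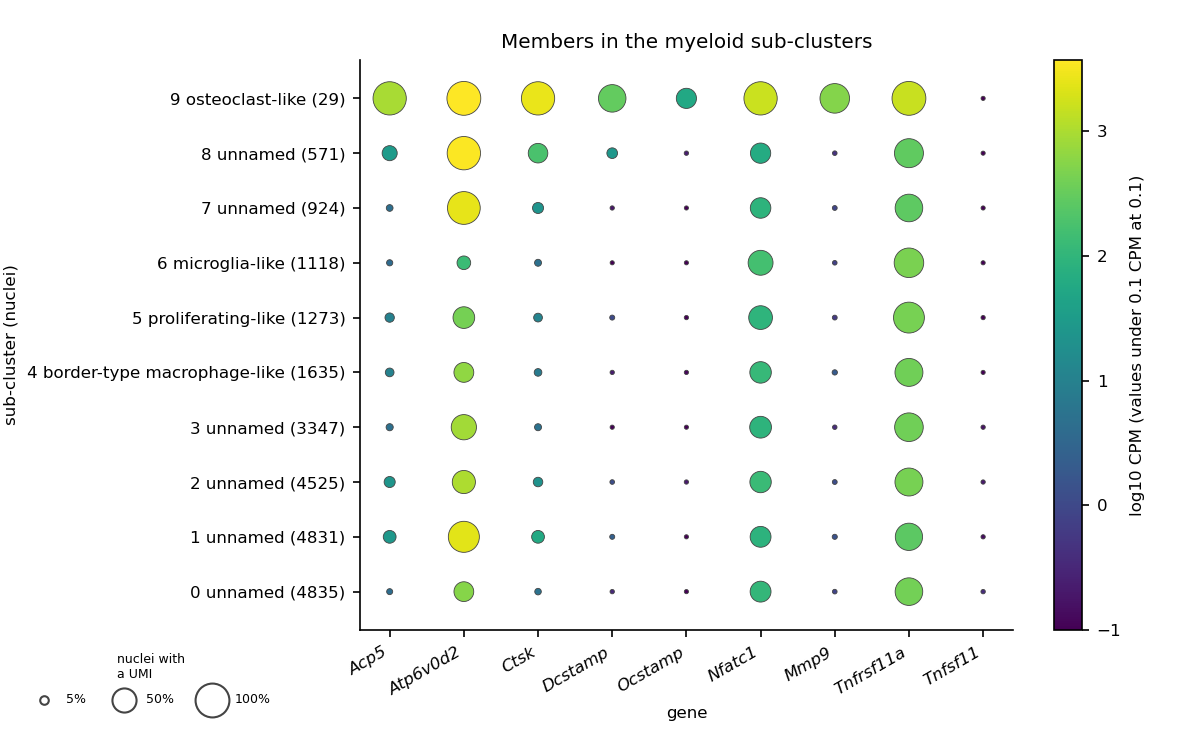
Each gene (x axis) in each myeloid sub-cluster (y axis, with the number of nuclei), where colour gives log10 CPM and dot size the percentage of nuclei with a UMI. *Atp6v0d2* and *Tnfrsf11a* reached most sub-clusters, while *Dcstamp*, *Ocstamp* and *Mmp9* stood out in the 29 nuclei of sub-cluster 9 (296, 56.1 and 537 CPM).

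Libraries differed in their mix of sub-clusters and in levels within sub-clusters, and the part of each in the differences above was not tested. A difference within a sub-cluster can still be one of mix. At a resolution of 0.5, clusters 3 and 5 of that split raised all 6 microglia markers. At 7 dpi they held 1612 and 29 nuclei of Tgfbr2-cKO and 121 and 1570 of Ctrl. At 7 dpi 1666 of 2250 Tgfbr2-cKO nuclei were in unnamed sub-cluster 0, against 497 of 4113 in Ctrl, and that Tgfbr2-cKO library had the highest sum of neuron markers (257 CPM). Within sub-cluster 0 *Atp6v0d2* was at 136 CPM in Tgfbr2-cKO and 405 CPM in Ctrl, a log2 ratio of -1.58 (-1.70 to -1.45). It was lower also in dividing sub-cluster 5 (33.0 against 196 CPM) and border-type sub-cluster 4 (29.1 against 305 CPM, on 4 UMIs). In sub-cluster 2, with 264 and 1787 nuclei, it was at 604 and 640 CPM, a ratio of -0.08 (-0.20 to 0.03), and in sub-cluster 3 the ratio was -0.11 (-0.40 to 0.18). At 21 dpi it lay below Ctrl in 5 of 6 sub-clusters, from -0.32 in sub-cluster 2 to -2.65 (-3.46 to -1.93) in sub-cluster 4. In sub-cluster 5 it was higher, at 770 against 352 CPM (1.13, 0.82 to 1.44), as was *Acp5* on 13 against 3 UMIs (3.47, 1.60 to 5.92). Under ADWA11 at 7 dpi *Atp6v0d2* was higher in 6 of 7 sub-clusters with at least 20 nuclei of each library, from 0.83 in sub-cluster 1 to 1.86 in sub-cluster 4, and lower in sub-cluster 8 (-0.35, -0.49 to -0.22). *Acp5* lay above Ctrl in 6 of those 7, past 2-fold in sub-clusters 2 (1.16, 0.89 to 1.44), 4 (1.45, 0.24 to 2.95) and 8 (2.26, 0.24 to 5.39, on 23 against 2 UMIs). *Ctsk* was mixed, above in 4 and below in 3, past 2-fold higher in sub-cluster 2 (1.16, 0.80 to 1.51) and past 2-fold lower in sub-cluster 8 (-1.78, -3.41 to -0.24, on 7 against 10 UMIs).

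At 21 dpi 3699 of 5690 ADWA11 nuclei were in sub-cluster 1, which is led by MHC class II genes (*Ciita*, *H2-Aa*, *H2-Eb1*), against 260 of 3037 in Ctrl. Within it *Atp6v0d2* differed by 0.32 (0.27 to 0.38), *Acp5* by 0.73 (0.10 to 1.43) and *Ctsk* by 0.61 (0.24 to 1.01), all under 2-fold. The other sub-clusters with at least 20 nuclei of each library were mixed for *Atp6v0d2* and *Ctsk*. *Atp6v0d2* lay above Ctrl in 7 of 8 sub-clusters, sub-cluster 1 included, but past 2-fold in 1, with 0.17 (0.10 to 0.24) in sub-cluster 8 and -0.22 (-0.47 to 0.03) in sub-cluster 4. *Ctsk* lay below Ctrl in sub-clusters 3 (-0.68, -2.24 to 0.75) and 4 (-0.58, -1.78 to 0.67). It was 2-fold or more higher within sub-cluster 2 (2.05, 1.55 to 2.53), within sub-cluster 8 (240 against 104 CPM, 1.21, 0.85 to 1.58) and, on 9 against 50 UMIs, within sub-cluster 0 (1.58, 0.37 to 2.62). *Acp5* lay above Ctrl in all 6 sub-clusters with at least 10 UMIs and a UMI in both libraries, sub-cluster 1 included. It was 2-fold or more higher in sub-cluster 2 (33.4 against 14.5 CPM, 1.20, 0.35 to 1.99) and in sub-cluster 0 (53.4 against 3.73 CPM, 3.84, 2.88 to 4.79). *Atp6v0d2* was at 2519 against 926 CPM in sub-cluster 0 (1.44, 1.34 to 1.55), where ADWA11 had 62 nuclei. *Dcstamp* in sub-cluster 8 gave 108 UMIs in 46 of 384 ADWA11 nuclei and 0 in 109 Ctrl nuclei at 21 dpi, at least 3.11 higher on the log2 scale at a floor of 3 UMIs in the Ctrl library.

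**Figure D3:**
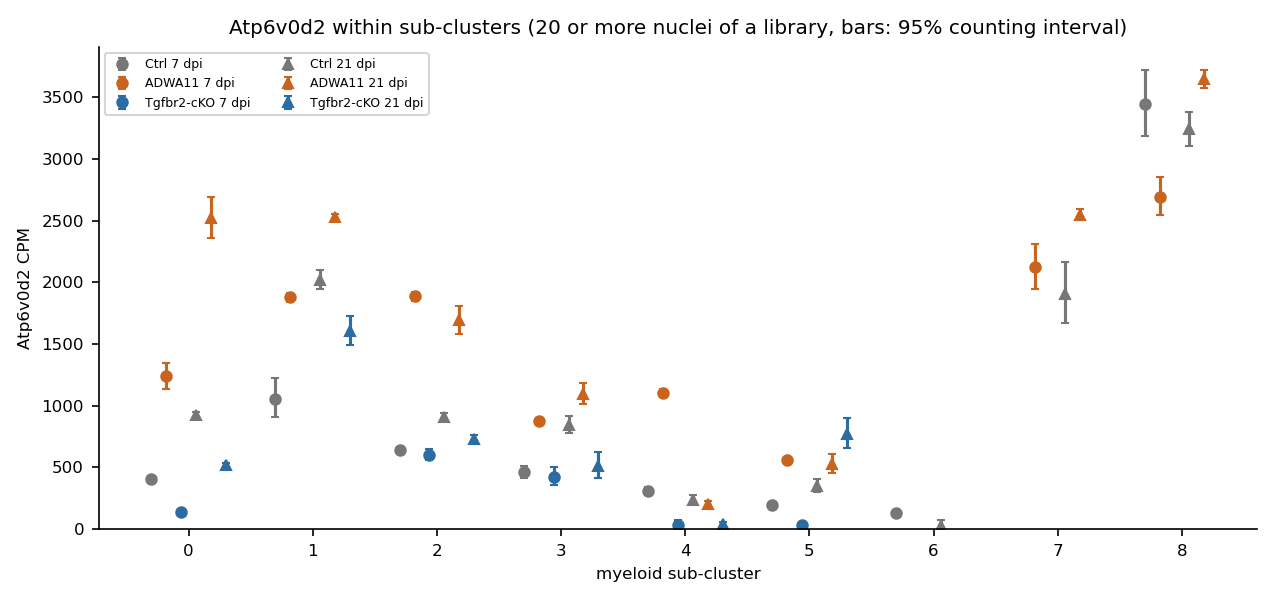
*Atp6v0d2* level (CPM, y axis) within each myeloid sub-cluster (x axis) for each library with at least 20 nuclei there, circles for 7 dpi and triangles for 21 dpi, bars for the 95% counting interval. ADWA11 (orange) lay above Ctrl (grey) at 7 dpi in each sub-cluster shown for both but 8, and Tgfbr2-cKO (blue) lay close to Ctrl in sub-cluster 2 at 7 dpi (604 and 640 CPM).

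Detection of several core genes in 1 nucleus was scored next. At 7 dpi a UMI of 3 or more of the 5 core genes was found in 22 of 4113 nuclei (0.535%, exact binomial interval 0.336% to 0.809%) in Ctrl, 41 of 5825 (0.704%) with ADWA11 and 2 of 2250 (0.0889%) in Tgfbr2-cKO. At 21 dpi it was found in 13 of 3037 (0.428%, 0.228% to 0.731%), 168 of 5690 (2.95%, 2.53% to 3.43%) and 9 of 2173 (0.414%). ADWA11 at 21 dpi lay above all other libraries, with a log2 ratio of 2.79 (1.97 to 3.73) against Ctrl. This share rises with the detection of each single gene, which was also higher there than in Ctrl. Detection was 82.8% against 54.5% for *Atp6v0d2*, 14.9% against 5.73% for *Ctsk* and 10.8% against 3.65% for *Acp5*. Whether the genes met in 1 nucleus more often than these shares give was not tested. By called sex, both mice of ADWA11 at 21 dpi (2.59% and 2.84%, on 32 and 105 such nuclei) were above both Ctrl mice (0.366% and 0.698%, on 6 and 6). The 2 mice of a group shared 1 library and are not replicates of it, and nuclei without a called sex are in neither share. At 7 dpi the ratio was -2.59 (-5.72 to -0.56) for Tgfbr2-cKO and 0.40 (-0.39 to 1.21) for ADWA11. Outside the osteoclast-like sub-cluster, which held 11 of the 22 Ctrl nuclei, the Tgfbr2-cKO ratio was -2.59 on 1 against 11 nuclei with an interval that included 0 (-8.02 to 0.19), and that of ADWA11 was 1.28 (0.29 to 2.40). Thinned to 2000 UMIs the expected share was 0.636% in ADWA11 and 0.185% in Ctrl at 21 dpi, a ratio of 1.78, and 0.137% against 0.287% at 7 dpi, which turned the ADWA11 ratio there to -1.07. Without nuclei carrying a collagen UMI the ratio at 21 dpi was at least 1.05. Nuclei with 3 or more core genes had a median of 8716 UMIs against 5176 in the others, and 11.8% against 4.18% were called doublets.

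These 255 nuclei were of different kinds. Sub-cluster 1 held 101, sub-cluster 8 held 58 (10.2% of its nuclei), sub-cluster 2 held 48 and sub-cluster 9 all of its 29. In the 226 outside sub-cluster 9 the level of *Nfatc1* was 85.8 CPM (73.7 to 99.3) and that of *Mmp9* 1.43 CPM, against 103 and 0.976 CPM in the remaining myeloid-like nuclei. In sub-cluster 9 the same genes were at 1622 and 537 CPM.

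**Figure D4:**
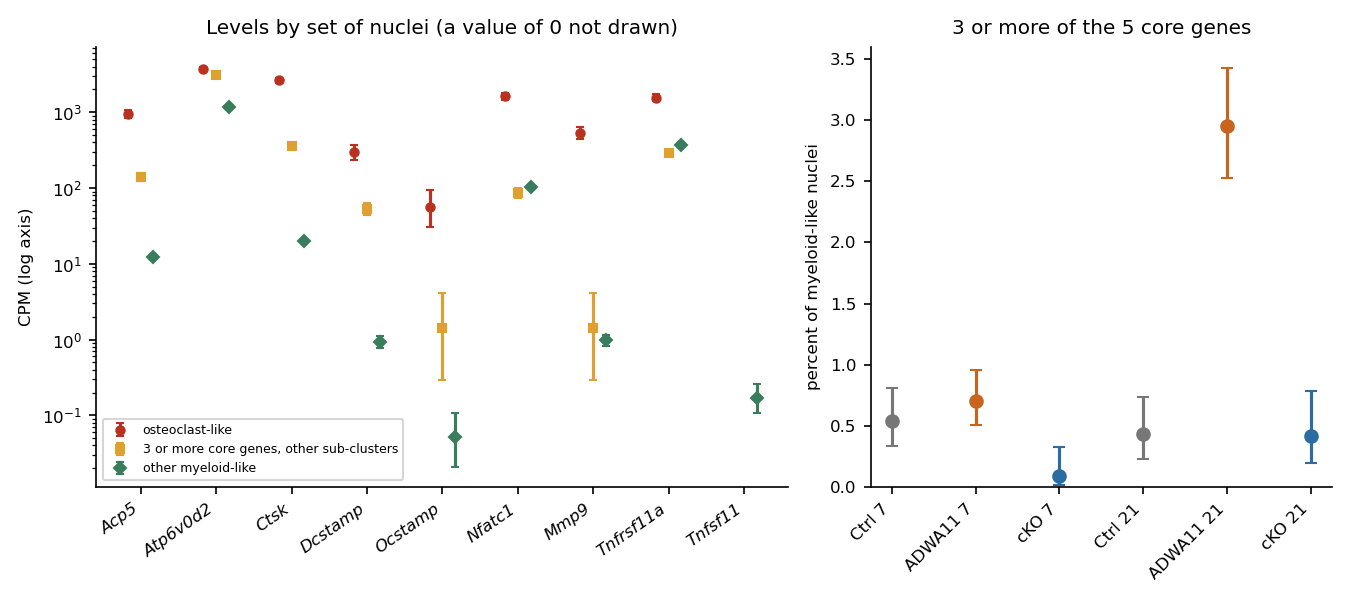
Left, level of each gene (CPM, log axis) in the 29 osteoclast-like nuclei, in 226 other nuclei with 3 or more core genes and in the remaining myeloid-like nuclei, with 95% counting intervals. Right, percentage of myeloid-like nuclei with 3 or more core genes in each library, 2.95% in ADWA11 at 21 dpi and under 1% in the other 5.

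Sub-cluster 9 was osteoclast-like by 7 markers that were not members, *Calcr*, *Oscar*, *Itgb3*, *Car2*, *Ckb*, *Slc9b2* and *Siglec15*, all of which were raised in it. It held 29 nuclei. Ctrl had 11, ADWA11 3 and Tgfbr2-cKO 1 early, and 2, 8 and 4 late, so each group had at least 1. All 29 had a UMI of *Atp6v0d2* and *Tnfrsf11a*, 28 of *Acp5*, *Ctsk* and *Nfatc1*, 22 of *Mmp9*, 19 of *Dcstamp* and 10 of *Ocstamp*. None had one of *Tnfsf11*, which allows up to 14.8 CPM. *Ctsk* was at 2663 CPM against 25.3 CPM in the other myeloid-like nuclei, *Acp5* at 953 against 14.2 CPM, *Dcstamp* at 296 against 1.72 CPM, *Ocstamp* at 56.1 against 0.0734 CPM and *Mmp9* at 537 against 0.983 CPM. *Nfatc1* (1622 against 102 CPM) and *Tnfrsf11a* (1558 against 366 CPM) were also higher, and in the other 9 sub-clusters they lay between 63.4 and 158 CPM and between 261 and 454 CPM. Thinned to 2000 UMIs, 94.5% would show *Ctsk*, 88.9% *Nfatc1* and 55.1% *Mmp9*, against 3.30%, 18.4% and 0.278% of all myeloid-like nuclei.

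Single nuclei varied. Between 3 and 5 core genes were found in each one, with all 5 in 9 nuclei, and 27 of 29 carried at least 3 of the 7 markers. A Ctrl nucleus at 7 dpi with 13809 UMIs held 70 of *Atp6v0d2*, 17 of *Ctsk*, 13 of *Acp5*, 5 of *Dcstamp*, 3 of *Ocstamp*, 15 of *Nfatc1* and 8 of *Mmp9*. The only one of Tgfbr2-cKO at 7 dpi, with 3990 UMIs, held 10, 17, 6, 0, 0, 2 and 5 in the same order. Their median was 9231 UMIs, and 1 of 29 was called a doublet. *Col1a1* was detected in 62.1% of them and 41.7% of the myeloid-like nuclei with under 3 core genes. The share of the sub-cluster was 0.267% (0.134% to 0.478%) in Ctrl and 0.0515% (0.0106% to 0.150%) in ADWA11 at 7 dpi, a log2 ratio of -2.38 (-4.86 to -0.46). The other 4 ratios of this share had intervals that included 0, so no other difference in the number of osteoclast-like nuclei was detectable.

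Other genes of the osteoclast pathway, in lists of 47 genes, were then read in sub-cluster 9. The lists hold 7 genes that also named it, *Calcr*, *Car2*, *Ckb* and *Slc9b2* for resorption, *Itgb3* and *Siglec15* for adhesion and *Oscar* among receptors, and their values are no independent support. They are left out of the counts that follow. Of the 10 other genes for acid secretion and resorption 8 were at least 2-fold higher with an interval above 0 and 0 were lower, where 6.01% of 20305 genes were higher and 6.56% lower by that measure. Without the interval rule 49.5% of those genes were past 2-fold higher and 11.1% lower, so this background depends on the rule. Among the 8 were the anion exchanger *Slc4a2* (288 against 32.0 CPM), the sorting nexin *Snx10* (1261 against 298 CPM) and the membrane protease *Mmp14* (476 against 55.5 CPM). Of 10 signalling and transcription factors 5 were higher, with *Fosl2* at 581 against 12.4 CPM and *Jdp2* at 1413 against 33.8 CPM, while *Mitf* (-0.09, -0.23 to 0.05) and *Tfec* (-0.30, -0.88 to 0.22) had intervals that included 0. The repressors of osteoclast formation *Irf8* (32.0 against 282 CPM) and *Bcl6* (36.0 against 73.2 CPM) were lower. Of 9 genes for adhesion and fusion 4 were higher and 3 were lower. Among the higher ones were the αv integrin subunit *Itgav* (3159 against 548 CPM) and the kinase *Src* (256 against 13.5 CPM). The Rac activator *Dock5* (1033 against 62.8 CPM) and *Cd44* (1137 against 275 CPM) were also higher. The lower ones were *Cd9* (log2 ratio -1.96), *Sirpa* (-1.07) and *Adam8* (-2.95). *Cd81* (-1.56, -4.61 to 0.30) and *Cd47* (-0.28, -0.72 to 0.13) had intervals that included 0. Of 5 receptors and adaptors 1 was higher and 1 lower. *Csf1r* was at 661 against 367 CPM and *Trem2*, the lower one, at 44.0 against 181 CPM.

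The lists were also read over all myeloid-like nuclei. Of 46 measured pathway genes 3 were higher and 5 lower by 2-fold or more in Tgfbr2-cKO at 7 dpi, where 14.3% and 6.06% of all genes were. Of 47 there were 5 and 3 at 21 dpi, against 7.86% and 7.40%. Under ADWA11 0 were higher and 2 lower at 7 dpi, against 8.69% and 6.89%, and 2 and 5 at 21 dpi, against 5.95% and 12.6%. In Ctrl over time 3 were higher and 4 lower, against 12.3% and 4.93%. Medians of the 47 genes lay between -0.06 and 0.09 in the 5 comparisons, against -0.08 to 0.09 for all genes. In Tgfbr2-cKO *Dock5* was at 16.6 against 72.1 CPM at 7 dpi and 35.9 against 74.0 CPM at 21 dpi, and the tetraspanin *Cd81* was at 82.3 against 18.9 CPM at 7 dpi. *Fos* (19.0 against 7.65 CPM) and carbonic anhydrase *Car2* (4.95 against 1.50 CPM) were higher in Tgfbr2-cKO at 21 dpi. *Car2* was also a leading gene of the oligodendrocyte cluster. Summed oligodendrocyte markers in myeloid-like nuclei were at 234 CPM in Tgfbr2-cKO and 114 CPM in Ctrl at 21 dpi. The part of such foreign RNA in the *Car2* difference was not tested. *Calcr* was at 2.90 CPM in Ctrl at 7 dpi and at 0.229 and 0.136 CPM in Tgfbr2-cKO and ADWA11, which goes with the numbers of osteoclast-like nuclei (11, 1 and 3), and at 0.786 CPM in Ctrl at 21 dpi. *Itgb3* was at 9.14 against 23.0 CPM under ADWA11 at 7 dpi. At 21 dpi ADWA11 nuclei had less *Csf1*, a growth factor for macrophages and osteoclasts (12.6 against 78.7 CPM), and *Cd9*, a tetraspanin (90.9 against 297 CPM), and more *Tfec*, a partner of MITF (216 against 102 CPM). *Csf1* was also lower in Ctrl at 21 than at 7 dpi (78.7 against 221 CPM).

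Outside members and lists, 12 genes were named for the highest level in nuclei with 3 or more core genes relative to other myeloid-like nuclei. They were *Rufy4* (43.0 against 0.231 CPM), *Scin* (23.0 against 0.127 CPM), *Mst1r*, *Nyap2*, *Itga2*, *Akap6*, *Ncald*, *Pip5k1b*, *Zfp462*, *St8sia6*, *1700111E14Rik* and *Myo1d*. *Scin* encodes an actin-severing protein and *Itga2* a collagen-binding integrin subunit. Their levels were far higher in the osteoclast-like nuclei than in the other nuclei with 3 or more core genes: *Nyap2* was at 1950 CPM in the 29 nuclei and 0.477 CPM in the others, and *Rufy4* at 372 and 3.81 CPM. *Myo1d*, an unconventional myosin, kept the highest level outside them, at 4036 and 235 CPM.

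The level of the core sum across 34 combinations of sub-cluster and library with at least 50 nuclei was most like that of *Anpep* among 11554 genes, with a Pearson correlation of log2(CPM + 1) of 0.97. *Airn* (0.92), *Igf2r* (0.88), *Myof* (0.88) and *Lipa* (0.87) followed. *Anpep* encodes a cell-surface aminopeptidase and *Lipa* the lysosomal acid lipase, and *Airn* lies antisense to *Igf2r*. The points share 6 libraries and most of the core sum is *Atp6v0d2*.

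The ligand was read in the stroma. *Tnfsf11* was at 11.2 CPM (8.28 to 14.7) in 709 osteoblast-like nuclei and at 5.82 CPM (5.33 to 6.34) in 10695 fibroblast-like nuclei over all libraries, with a UMI in 4.65% and 2.62% of nuclei, against 1.23% of neural nuclei. The neural share ran from 0.120% (Ctrl, 7 dpi) to 3.70% (Ctrl, 21 dpi), and in Ctrl at 21 dpi it was above that of fibroblast-like nuclei (1.42%) and close to that of osteoblast-like nuclei (3.62%, 1.58% to 7.01%). Median UMIs per nucleus were 5651 and 7829. Among the neural classes it was at 9.33 CPM in oligodendrocyte-like (3.16% of nuclei), 5.91 CPM in astrocyte-like (3.01%) and 0.207 CPM in neuron-like nuclei, so fibroblast-like nuclei were not above every neural class. The osteoblast-like cluster was led by *Bglap*, *Ibsp* and *Sp7* and raised as many fibroblast as osteoblast markers, 6 of each, so its name rested on the leading genes. In Ctrl it was at 32.8 CPM on 15 UMIs at 7 dpi and 9.66 CPM on 12 UMIs at 21 dpi, and in ADWA11 at 0 UMIs in 103 nuclei at 7 dpi and 11.6 CPM on 23 UMIs at 21 dpi. Fibroblast-like nuclei of the same libraries were at 4.19, 2.65, 7.27 and 4.63 CPM. Osteoblast-like nuclei were thus above fibroblast-like ones in 3 of 4 libraries, by 2.97 (2.05 to 3.80) in Ctrl at 7 dpi, 1.87 (0.85 to 2.76) in Ctrl at 21 dpi and 1.33 (0.61 to 2.00) in ADWA11 at 21 dpi, and at most -0.93 in ADWA11 at 7 dpi. Tgfbr2-cKO held 2 osteoblast-like nuclei at each time and gave no value.

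This order did not hold under other choices. Without the 5 nuclei with most *Tnfsf11* UMIs in each class the ratio was 0.86 in Ctrl at 7 dpi and 0.30 at 21 dpi, and 13 of the 15 UMIs at 7 dpi lay in 5 nuclei. Log-normalised clustering kept 238 of the 709 nuclei as osteoblast-like and placed 456 with the fibroblasts, and all 50 *Tnfsf11* UMIs were in the 456. The nuclei that both clusterings called osteoblast-like thus held 0, and the ratio in ADWA11 at 21 dpi became at most -0.29.

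Fibroblasts of Tgfbr2-cKO carried more of the ligand than those of Ctrl, at 12.7 against 4.19 CPM at 7 dpi (log2 ratio 1.60, 0.86 to 2.30) and 25.7 against 2.65 CPM at 21 dpi (3.28, 2.84 to 3.72). At 21 dpi 113 of the 119 UMIs came from fibroblast sub-cluster 6, of whose 333 nuclei 312 were in that library, and which raised the myelin markers *Mbp* and *Mobp* and was led by *Gabrg3* and *Ebf3*. Without this sub-cluster the ratio was 0.73. At 7 dpi the ratio was 0.65 without the 5 nuclei with most UMIs. ADWA11 fibroblasts were higher than Ctrl by 0.80 at both times (0.36 to 1.24 and 0.35 to 1.27), which is under 2-fold.

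T cells held more of the ligand. *Tnfsf11* was at 42.5 CPM (37.0 to 48.6) in 1916 T cell-like nuclei, with a UMI in 7.05% of them at a median of 2415.5 UMIs. It was at 52.0, 51.9, 62.8 and 41.2 CPM in Ctrl and ADWA11 at 7 dpi and in Ctrl and ADWA11 at 21 dpi, above the fibroblasts in all 4, by 2.84 to 4.57 on the log2 scale. In Tgfbr2-cKO at 21 dpi it was at 20.3 CPM on 16 UMIs, which did not differ from its fibroblasts beyond counting error (-0.34, -1.19 to 0.42). That exception rested on fibroblast sub-cluster 6, without which those fibroblasts held 6 UMIs in 176 nuclei (4.39 CPM) and T cells were higher by 2.21 (0.78 to 3.85). Unnamed cluster 23, 364 nuclei that raised T cell markers but were led by *S100a8* and *S100a9*, came next to T cells at 25.5 CPM (18.0 to 35.2), with a UMI in 6.04% of nuclei. T cell-like nuclei numbered 1044 in ADWA11 at 21 dpi and 267 in Ctrl. The decoy *Tnfrsf11b* was at 21.3 CPM in fibroblast-like, 14.7 CPM in osteoblast-like and 1.39 CPM in T cell-like nuclei. In Ctrl fibroblasts it was at 10.9 CPM at 7 dpi and 29.0 CPM at 21 dpi, and in Tgfbr2-cKO fibroblasts at 14.3 and 17.5 CPM.

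**Figure D5:**
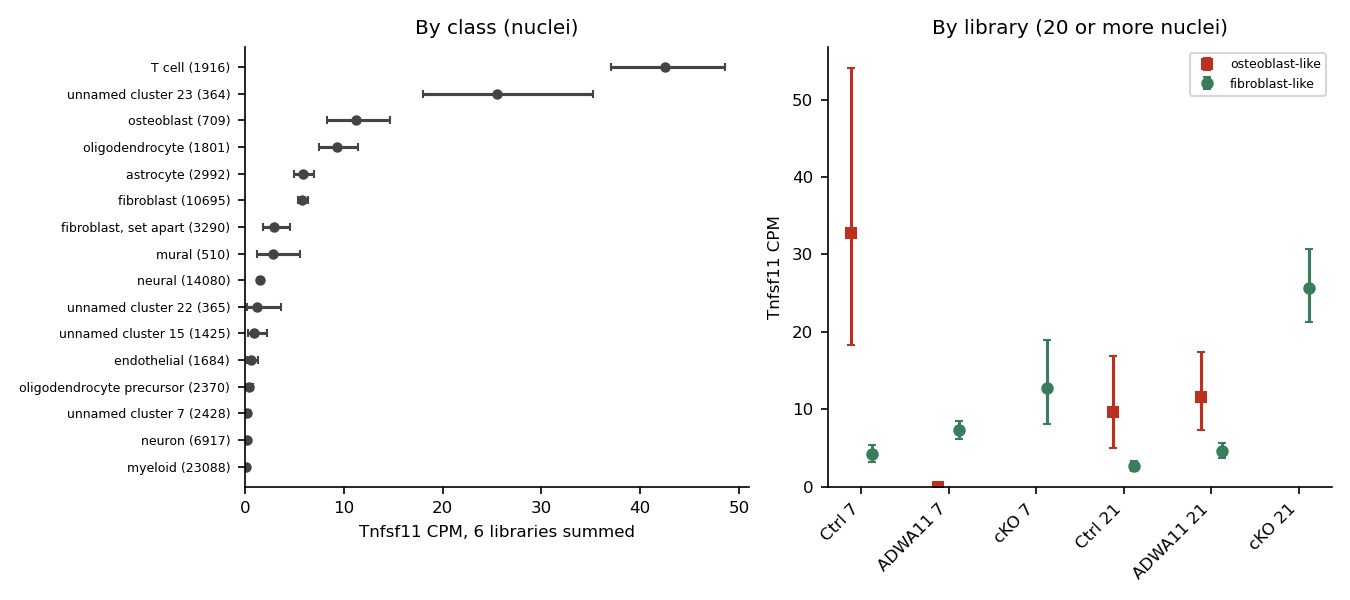
Left, *Tnfsf11* level (CPM, x axis) in each class of nuclei over the 6 libraries, with 95% counting intervals and the number of nuclei. Right, its level in osteoblast-like (red) and fibroblast-like (green) nuclei of each library with at least 20 of them; osteoblast-like nuclei of ADWA11 at 7 dpi held 0 UMIs. T cells stood at 42.5 CPM, above every other class.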

How the data were processed

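Per the file headers the deposited values were UMI counts per gene and barcode that the authors made with Cell Ranger 7.2.0, with their barcode selection and no normalisation, on mm10. Members and lists were chosen with earlier results of these data known. Barcodes in the outer 2.5% of their library at either end for UMIs and genes, or at the upper end for mitochondrial share, were left out, as in the study's methods. Nuclei were clustered after SCTransform (Seurat 5.3.0, sctransform 0.4.2, R 4.3.3; 3000 variable genes, 30 components, Louvain resolution 0.5, myeloid 0.25) and named from at least 3 raised markers, so a difference from the study may come from rebuilt names. Doublets were scored by simulation, 6339 in all, and sub-clusters with over 50% called were removed (1363 nuclei). The 3290 fibroblast nuclei of 1 sub-cluster with few UMIs were set apart. UMIs were summed per class and library as CPM of non-mitochondrial UMIs, with exact Poisson, binomial and conditional binomial 95% intervals, and bounds at a floor of 3 counts. These cover counting error only. A value past 2-fold needed 10 UMIs over both libraries. Female nuclei had Xist and no Y-linked UMI, male nuclei the reverse.

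Named pathway genes had 50 UMIs and were the 2 highest and 2 lowest per comparison. The 12 genes of nuclei with 3 core genes had 50 UMIs there and were 2-fold higher in each library with 20 such nuclei, and the 5 genes most like the core sum had 500 UMIs. Identifiers of 32235 of 32285 features were matched in GENCODE M21 (GRCm38). The ratio and thinning code was tested on simulated data. TMM factors came from edgeR 4.0.16. Overlapping and antisense genes were taken as counted. Some genes of the lists are not reported here.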

Additional observations from a re-analysis of the deposited data

How the results depend on the processing

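No group had a second library, so no value carries an error between replicates. No paired analysis was possible because each group was 1 library and the labels give no replicate number. The core sum kept its direction in all 5 comparisons under every alternative run, except that the sum without *Atp6v0d2*, added after the data were seen, changed sign for ADWA11 at 7 dpi; it did not with the osteoclast-like nuclei also left out (0.32). That sum was -0.51 for Tgfbr2-cKO at 21 dpi, -0.11 for ADWA11 at 7 dpi, 1.55 for ADWA11 at 21 dpi and 0.23 for 21 against 7 dpi in Ctrl, and without osteoclast-like nuclei -0.88 and -1.10 for Tgfbr2-cKO at 7 and 21 dpi, 1.62 for ADWA11 at 21 dpi and 0.70 for Ctrl over time. In the order Tgfbr2-cKO at 7 and 21 dpi, ADWA11 at 7 and 21 dpi and Ctrl over time, the full sum was -0.74, -0.52, 0.90, 1.02 and 1.00 without both sub-clusters with raised microglia markers, added later, and -0.95, -0.73, 1.45, 1.10 and 1.28 in male nuclei. The other values outside the counting interval were -1.46, 0.99 and 0.93 without the microglia-like sub-cluster (Tgfbr2-cKO at 7 dpi, ADWA11 at 7 dpi and Ctrl over time), -0.97, 1.22 and 1.28 in female nuclei (Tgfbr2-cKO at 21 dpi, ADWA11 at 7 dpi and Ctrl over time), -1.28, 1.31 and 1.11 with TMM factors (Tgfbr2-cKO at 7 dpi, ADWA11 at 21 dpi, Ctrl over time), -1.29, -0.92, 1.36 and 1.28 as a mean over nuclei (all but ADWA11 at 21 dpi), 1.21, 1.28 and 1.13 without nuclei with a collagen UMI (both ADWA11 comparisons and Ctrl over time), -1.25, -0.85 and 1.33 without the 5 nuclei with most UMIs (both Tgfbr2-cKO comparisons and ADWA11 at 7 dpi), -0.82 with the pooled percentile filter (Tgfbr2-cKO at 21 dpi) and, added later, 1.36 and 1.29 without the osteoclast-like nuclei (ADWA11 at 7 dpi and Ctrl over time).

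The share with 3 or more core genes moved, for ADWA11 at 7 dpi, to 1.51 in male nuclei, 1.43 without collagen UMIs, 1.28 without osteoclast-like nuclei and -1.07 when thinned; for ADWA11 at 21 dpi, to 1.70 with 2 genes, 1.78 thinned and at least 1.05 without collagen UMIs; and for Ctrl over time, to 1.13 in male nuclei. *Tnfsf11* in osteoblast-like against fibroblast-like nuclei moved to 0.86 and 0.30 in Ctrl at 7 and 21 dpi without the 5 nuclei with most UMIs, and in ADWA11 at 21 dpi to 3.75 in female nuclei and to at most -0.29 after log-normalisation. The osteoclast-like nuclei numbered 32 with list genes kept in the sub-clustering, all 29 among them, and the same 29 at a resolution of 0.5. The causes of these changes were not tested. An alternative with 0 counts on one side and a bound on the far side of 0 gave no value.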

Other observations

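Some of these genes had a second home outside the macrophages. Cluster 15, 1425 nuclei, raised the neutrophil markers *S100a8*, *S100a9*, *Csf3r* and *Cxcr2* but stayed unnamed. Its leading genes included *Sirpb1a*, *Plbd1*, *Il1b* and the dendritic cell gene *Clec9a*. Log-normalised clustering named a cluster with *S100a9*, *S100a8*, *Il1b*, *Sirpb1a* and *Plbd1* among its leading genes neutrophil. In cluster 15 a UMI of *Dcstamp* was found in 2.88% of nuclei (97 UMIs, 18.9 CPM), of *Ocstamp* in 0.842% (17 UMIs) and of *Mmp9* in 4.63%. Over all 23088 myeloid-like nuclei *Dcstamp* was at 2.26 CPM. *Tnfrsf11a* was at 249 CPM in the same cluster. The TRAP gene *Acp5* was at 62.7 CPM (56.0 to 70.0) in T cell-like nuclei, with a UMI in 14.5% of them, against 15.9 CPM in myeloid-like nuclei, and *Nfatc1*, which T cells also use downstream of their receptor, was at 227 CPM against 105 CPM. Unnamed cluster 23, 364 nuclei that raised T cell markers and were led by *S100a8* and *S100a9*, was higher still for *Acp5*, at 101 CPM (85.1 to 119) with a UMI in 20.3% of nuclei, and had *Mmp9* at 54.5 CPM (43.2 to 68.0) in 6.32%.

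*Ctsk* was not particular to macrophages by number of nuclei or by level. A UMI was found in 22.4% of osteoblast-like and 20.8% of fibroblast-like nuclei, against 6.83% of myeloid-like nuclei. Its level was 51.3 CPM in osteoblast-like and 32.1 CPM (30.9 to 33.3) in fibroblast-like nuclei, against 30.2 CPM (29.2 to 31.1) in myeloid-like nuclei. Over all 61917 nuclei, 37 had at least 3 core genes and 3 of the 7 osteoclast markers, a rule set after the values were seen. Of these 27 were in the osteoclast-like sub-cluster, 3 in other myeloid-like sub-clusters and 7 in other classes or among doublets.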
